A study of Mus musculus with 2 samples.

Results

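The genes described here make up the mevalonate, cholesterol and lipid synthesis pathway in mouse Treg cells, the regulatory CD4 T cells that hold immune responses in check. They are 36 of the 55536 annotated genes of the gene tables, chosen by symbol in GENCODE M21, the gene annotation on which the tables were made, and all 36 symbols were found in both libraries. The members fall into 6 role groups, namely the isoprenoid arm, the sterol arm, the SREBP regulators, the LXR receptors with their efflux pumps, sterol transport and esterification, and fatty acid synthesis. The series has 1 group. Primary regulatory T cells of a male mouse, 9 weeks of age, gave 1 biological replicate, from which 2 polyA RNA-seq libraries were made as technical replicates 1 and 2, called library 1 and library 2 here. Treatment, genotype, strain and sorting markers were not given in the sources used here. There is therefore no comparison between conditions, and every SD below is the spread between technical libraries (n = 2), which says nothing of other mice.

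The mevalonate pathway builds isoprenoids from acetyl-CoA. Farnesyl and geranylgeranyl diphosphate leave it as lipid anchors for small GTPases, and squalene leaves it for cholesterol. SREBP transcription factors, which SCAP carries out of the endoplasmic reticulum when sterols are low and INSIG proteins hold back when sterols are high, activate the genes of sterol and fatty acid synthesis. LXR receptors respond to oxysterols and activate sterol export. In Treg cells the mevalonate pathway has been linked to proliferation and to suppressive function.

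Summed over annotated genes, the estimated counts came to 34697128 for library 1 and to 32049199 for library 2, and pairs of values keep that order throughout. The members together took 0.135% and 0.130% of all TPM, the unit that divides each gene's abundance by its length and scales it to a fixed total. The cells were checked against defining markers. All 6 Treg and T cell markers were detected, which here means 1 TPM or more in both libraries, and Foxp3, the lineage factor of Treg cells, was at 108 and 111 TPM. Of 5 B cell markers 4 were detected at a summed 45.8 and 40.5 TPM, and of 8 macrophage and myeloid markers 4 were detected at a summed 28.7 and 21.7 TPM. None of the 4 adipocyte, 3 hepatocyte or 4 stromal markers was detected.

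Among the members 34 of 36, or 94.4%, were detected, beside 48.0% of 22028 protein-coding genes and 23.9% of all annotated genes. The members that were not detected were Nr1h3 and Scd1. The median level of the 36 members was 28.8 TPM, close to the 31.1 TPM of the 10583 detected protein-coding genes, and 17 members lay above that value. There were 3 members at 100 TPM or more, 26 between 10 and 100 TPM, 5 between 1 and 10 TPM, and 2 under 1 TPM. In order of mean level Nr1h2 and Srebf2 came first, followed by Ebp, Npc2 and Sc5d. Of the 35 neighbouring pairs in this order, 23 had library ranges that overlapped. Each member from Scd2 at rank 11 to Soat1 at rank 17 overlapped the next one, for example. An overlap of ranges does not show that levels were equal, as it leaves out the order within each library. Some overlapping neighbours, such as Nr1h2 and Srebf2, kept their order in both libraries, and others, such as Fdps and Ggps1, did not.

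**Figure D1:**
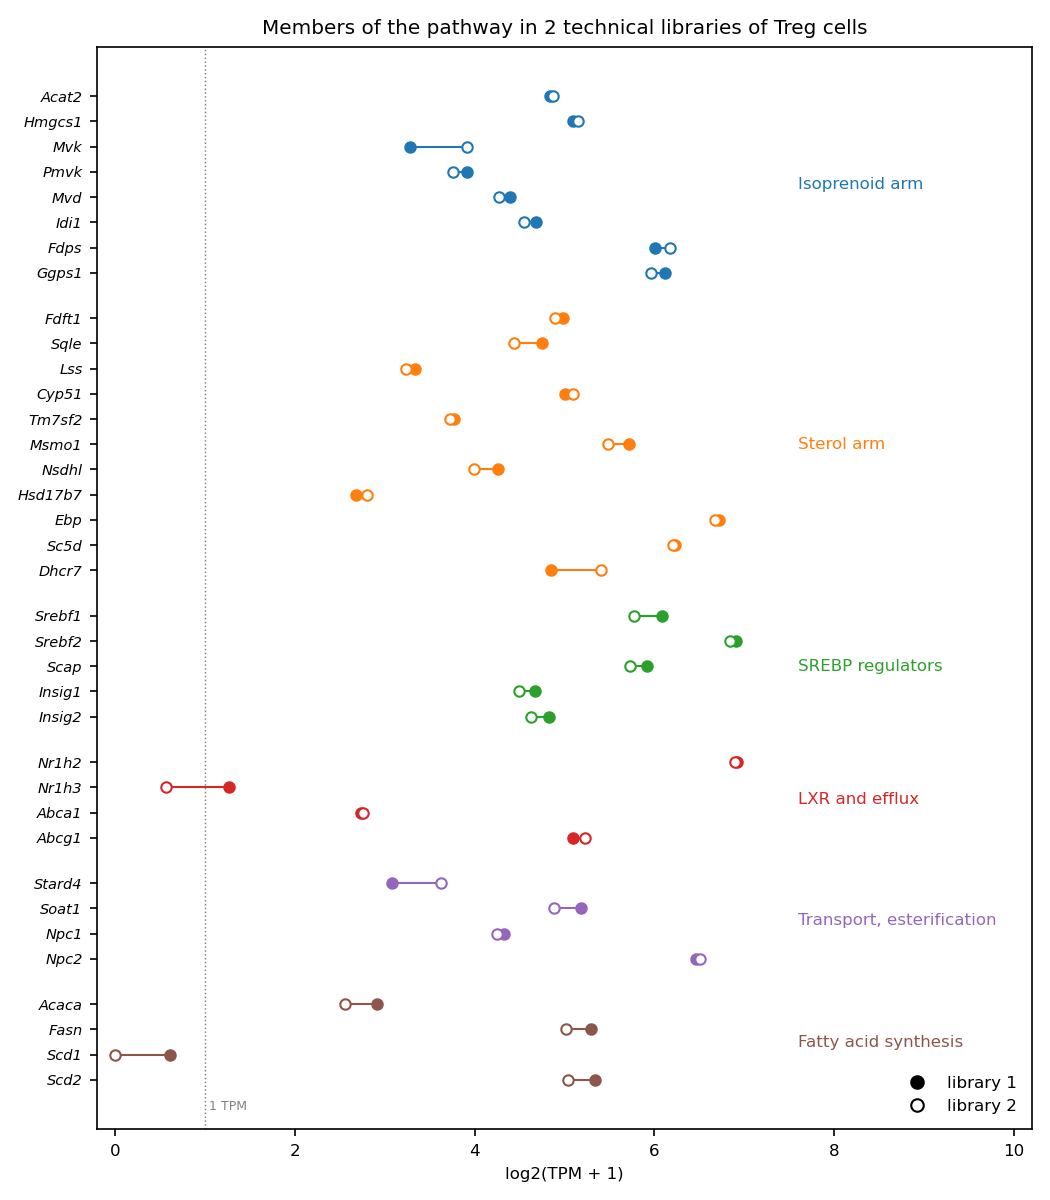
Level of each of the 36 members in log2(TPM + 1), filled circles for library 1 and open circles for library 2, with a line joining the libraries and the role groups in colour. Nr1h2 at 120 and 118 TPM and Srebf2 at 119 and 114 TPM lie farthest right, and Nr1h3 and Scd1 are the members with a circle left of the dotted line at 1 TPM.

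The promoter stretches of Hmgcs1, Mvk and Fasn are shown first because Hmgcs1 is the member with the sterol regulatory element, Mvk has the most CCAAT boxes, and Fasn has CCAAT boxes that overlap. Each line gives the 200 bases before the RefSeq transcription start on GRCm38.p6, 5′ to 3′ on the gene's strand. Capitals mark matches on either strand to the sterol regulatory element TCACNCCAC (bound by SREBP), the CCAAT box CCAAT (bound by NF-Y), the GC box GGGCGG (bound by Sp1) and the E-box CACGTG.
Hmgcs1, chr13:119690151-119690350, plus strand: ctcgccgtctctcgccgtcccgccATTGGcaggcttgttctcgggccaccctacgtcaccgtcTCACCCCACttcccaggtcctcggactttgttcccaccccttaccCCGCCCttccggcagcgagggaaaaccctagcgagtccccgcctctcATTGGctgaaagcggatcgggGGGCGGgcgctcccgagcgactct
Mvk, chr5:114444069-114444268, plus strand: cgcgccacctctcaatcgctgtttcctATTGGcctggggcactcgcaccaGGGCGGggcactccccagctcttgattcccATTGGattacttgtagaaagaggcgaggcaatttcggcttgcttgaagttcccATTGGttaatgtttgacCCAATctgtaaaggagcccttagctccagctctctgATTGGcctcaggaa
Fasn, chr11:120824548-120824747, minus strand: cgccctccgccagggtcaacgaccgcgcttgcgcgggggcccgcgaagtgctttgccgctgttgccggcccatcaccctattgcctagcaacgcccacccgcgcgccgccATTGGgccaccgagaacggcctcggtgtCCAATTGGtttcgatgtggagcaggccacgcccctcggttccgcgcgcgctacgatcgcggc
The sterol regulatory element of Hmgcs1 began 137 bases before the start, with CCAAT boxes on both sides of it and GC boxes on its downstream side. Mvk had 5 CCAAT boxes in its window and Fasn had 3, of which a pair on opposite strands overlapped. NF-Y and Sp1 are known as partners of SREBP at sterol-responsive promoters.

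RefSeq windows of 250 bases before to 50 after a start were given for 28 members, with 37 windows in all. Fdps, Fdft1, Sqle, Abcg1, Stard4, Npc1, Scd1 and Scd2 had no entry. A CCAAT box was found in 22 of the 28 members (78.6%), beside 43.6% of 8416 detected protein-coding genes and 41.1% of all 27025 genes in the table. A GC box was also found in 22 members (78.6%), beside 69.7% and 38.2% in those same sets. Both boxes occurred in the same window in 18 members (64.3%), beside 28.1% and 14.5%. The E-box occurred in 6 members (21.4%), which were Abca1, Dhcr7, Hsd17b7, Insig1, Sc5d and Scap, beside 12.2% and 8.09%. The sterol regulatory element as spelled here occurred in Hmgcs1 alone (3.57%), beside 1.38% and 1.44%. No matches of different motifs overlapped in the members' windows. A match is a description of letters, and no binding was measured.

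**Figure D2:**
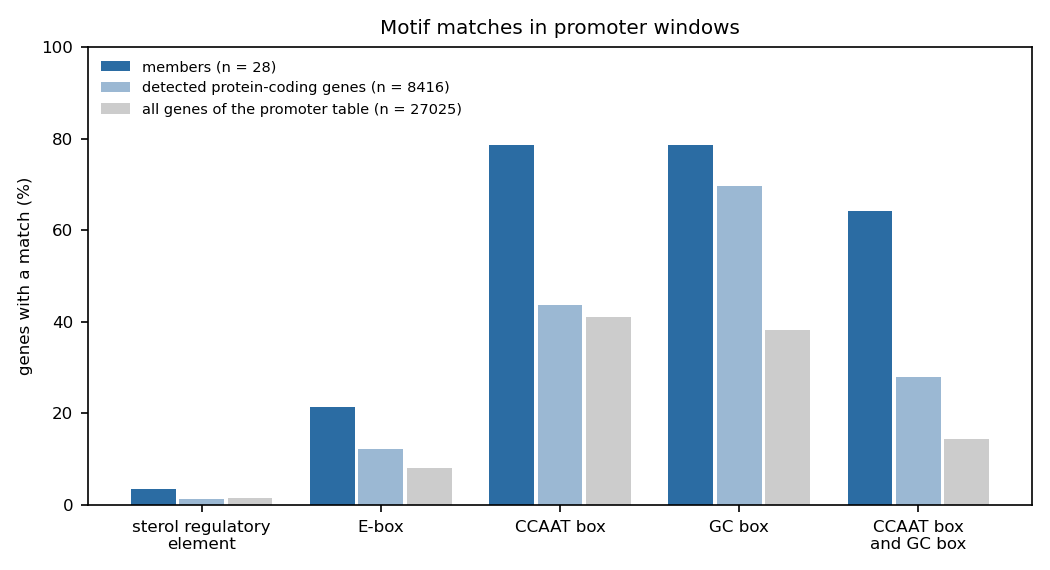
Share of genes (%) with at least 1 match to each motif in RefSeq promoter windows, for the 28 members with a window (dark), 8416 detected protein-coding genes (light) and all 27025 genes of the table (grey). The CCAAT box reaches 78.6% of members and 43.6% of detected protein-coding genes, while the GC box reaches 78.6% and 69.7%, and the last bars count both boxes in 1 window.

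The isoprenoid arm runs from acetyl-CoA to the prenyl diphosphates, and all 8 members were detected. Its highest members were the synthases at its branch points. Fdps, which makes farnesyl diphosphate, was at 63.2 and 71.1 TPM (67.1 ± 5.57, SD). Ggps1, which makes geranylgeranyl diphosphate, was at 68.4 and 61.1 TPM (64.8 ± 5.14). By gene TPM the libraries put these genes in opposite orders, so gene TPM did not separate them. On protein-coding transcripts alone Fdps, at 60.2 and 68.5 TPM, stood above Ggps1, at 55.4 and 45.8 TPM. Hmgcs1, which condenses acetoacetyl-CoA with acetyl-CoA, came next at 33.2 and 34.6 TPM (33.9 ± 1.02). The lowest member by mean was Mvk, the mevalonate kinase, at 8.71 and 14.1 TPM (11.4 ± 3.8). The highest mean of the arm was 5.89 times the lowest. The remaining members lay between these. Acat2, the cytosolic thiolase that opens the pathway, was at 27.5 and 28.4 TPM, and Idi1, the isopentenyl diphosphate isomerase, at 24.7 and 22.34 TPM. Pmvk, the next kinase, was at 14.0 and 12.5 TPM, so that it was below Mvk in library 2, and the decarboxylase Mvd was at 19.98 and 18.3 TPM. Within this arm the kinases Mvk and Pmvk and the decarboxylase were the low steps in both libraries.

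The sterol arm takes squalene to cholesterol, and all 11 members were detected, with a summed level of 391 and 383 TPM. Ebp, the sterol isomerase, was highest at 104.2 and 100.8 TPM (102.5 ± 2.36). Sc5d, the sterol desaturase after it, was at 74.2 and 72.9 TPM (73.6 ± 0.926). Msmo1, an oxidase of demethylation, was at 51.5 and 43.6 TPM (47.6 ± 5.59). By gene TPM these levels stood in the same order in both libraries with no overlap. On protein-coding transcripts alone Sc5d, at 74.2 and 72.9 TPM, stood above Ebp, at 54.8 and 53.2 TPM. Most of that Ebp value lay on the 526-base transcript Ebp-203, at 44.7 and 44.4 TPM. Msmo1 was at 27.4 and 23.2 TPM on such transcripts. The lowest was Hsd17b7, the ketosteroid reductase of demethylation, at 5.42 and 5.99 TPM (5.71 ± 0.403), and the highest mean of the arm was 18.0 times its mean. Lss, which closes the ring to lanosterol, was the next lowest at 9.09 and 8.46 TPM. Tm7sf2, a sterol reductase, was at 12.6 and 12.2 TPM, and Nsdhl, a dehydrogenase of demethylation, at 18.1 and 14.9 TPM. Sqle, the squalene epoxidase and a known control point, was at 26.0 and 20.7 TPM. The squalene synthase Fdft1 was at 30.6 and 28.7 TPM, and the lanosterol demethylase Cyp51 at 31.2 and 33.3 TPM. Dhcr7, the reductase of a last step to cholesterol, differed most between libraries in this arm, at 27.9 and 41.3 TPM.

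All 5 SREBP regulators were detected, with a median of 55.6 TPM over the group. Srebf2, whose protein mainly drives sterol genes, was at 119 and 114 TPM (116 ± 3.59). Srebf1, whose protein isoforms drive fatty acid genes and, for SREBP-1a, sterol genes too, was at 67.0 and 53.8 TPM (60.4 ± 9.29). Srebf2 was thus 1.78 and 2.12 times as high as Srebf1, a log2 ratio of 0.96 ± 0.18. Scap, the escort protein, was at 59.3 and 51.8 TPM (55.6 ± 5.28). The retention factors were lower. Insig2 was at 27.4 and 23.8 TPM and Insig1, itself a known SREBP target, at 24.5 and 21.6 TPM. Insig1 stood at 0.895 and 0.907 of Insig2, a log2 ratio of -0.15 ± 0.01 that turned to 0.14 when estimated counts were used without division by length. In the Srebf2 intron lies Mir33, a miRNA that represses sterol export genes. Its 69-base gene was listed at 0 in both libraries, and polyA libraries do not capture mature miRNAs.

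Srebf1 (chr11:60199089-60222581 on GRCm38, minus strand) has alternative first exons that give its protein a long or a short activation domain. The transcript Srebf1-201 starts at the upstream exon of the SREBP-1a type (chr11:60220453-60220604), with 91 coding bases in that exon. Srebf1-207 starts 10139 bases downstream at the exon of the SREBP-1c type (chr11:60210336-60210465), with 19 coding bases. Both splice to the same exon at chr11:60206838-60207257. The first 96 coding bases of each are shown with the first exon in capitals, because the first exons differ. The annotated coding sequences differ at the other end too. There Srebf1-207 ends within exon 18 and lacks exon 19, which holds coding bases of Srebf1-201.
Srebf1-201: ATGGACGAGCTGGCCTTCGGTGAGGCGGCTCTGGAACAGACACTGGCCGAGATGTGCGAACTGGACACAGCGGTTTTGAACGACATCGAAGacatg
Srebf1-207: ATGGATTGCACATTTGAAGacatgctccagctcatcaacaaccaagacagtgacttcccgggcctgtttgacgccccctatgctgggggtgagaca
Srebf1-201 had 2980 and 2326 estimated counts (33.2 and 26.7 TPM), with posterior SDs of 127 and 151 counts from the model that divides shared reads. Srebf1-207 had 418 and 225 estimated counts (6.32 and 3.50 TPM), with posterior SDs of 110 and 79.6 counts. Srebf1-201, of the SREBP-1a type, exceeded Srebf1-207, of the SREBP-1c type, 7.13-fold and 10.3-fold by estimated counts. By TPM the folds were 5.25 and 7.62. Both libraries gave the same direction, and the gap exceeded the posterior SDs. As annotated, Srebf1-207 lacks exon 19 of Srebf1-201, so reads from that exon could not be assigned to it. The posterior SDs do not cover this, and the folds do not measure the first exons alone. Liver, which was not measured here, is known for more of the SREBP-1c type. Srebf1-203, which starts within the shared exon, had 94.3 and 311 estimated counts. Most of its exons are common to Srebf1-201 and Srebf1-207, so its counts were assigned to neither type. The processed transcript Srebf1-204 starts upstream of Srebf1-201 and splices to the shared exon. Coding transcripts held 60.6 and 63.1% of the TPM of Srebf1, and 91.7 and 93.2% of its estimated counts.

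The promoter stretches of the SREBP-1a and SREBP-1c type starts are given in the same way as above. The window of a RefSeq start farther upstream is not shown.
Srebf1, SREBP-1a type, chr11:60220628-60220827, minus strand: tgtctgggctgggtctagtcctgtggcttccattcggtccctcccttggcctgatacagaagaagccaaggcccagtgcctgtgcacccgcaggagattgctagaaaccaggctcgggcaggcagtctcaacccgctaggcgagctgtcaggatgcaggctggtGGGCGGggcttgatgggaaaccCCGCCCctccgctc
Srebf1, SREBP-1c type, chr11:60210472-60210671, minus strand: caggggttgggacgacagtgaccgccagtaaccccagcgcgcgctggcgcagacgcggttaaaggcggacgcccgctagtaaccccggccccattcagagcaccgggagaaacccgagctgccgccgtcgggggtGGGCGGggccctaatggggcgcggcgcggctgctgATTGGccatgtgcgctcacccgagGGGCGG
The SREBP-1a type stretch held GC boxes and no CCAAT box, and the SREBP-1c type stretch held GC boxes and a CCAAT box that began 30 bases before the start.

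**Figure D3:**
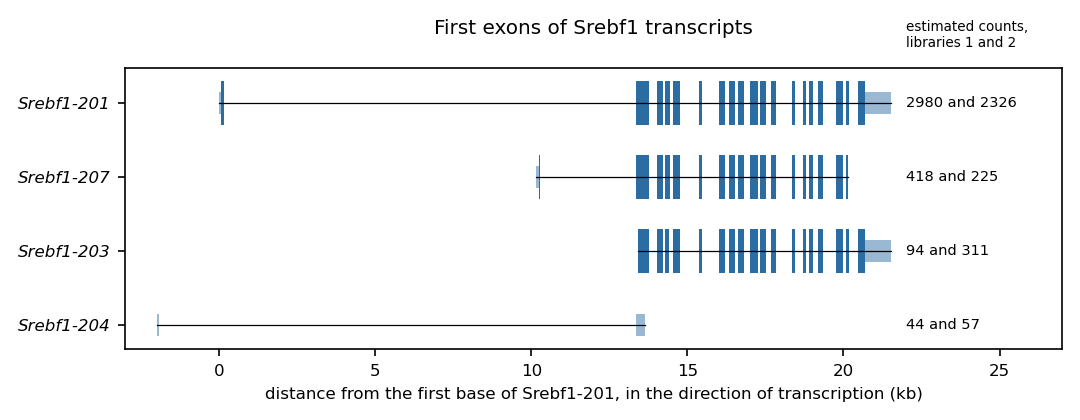
Exons of 4 Srebf1 transcripts by distance in kb from the first base of Srebf1-201 in the direction of transcription, tall boxes coding and low boxes not coding, with estimated counts in libraries 1 and 2 at the right. Srebf1-201 holds 2980 and 2326 counts and Srebf1-207, which starts downstream, 418 and 225.

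The LXR group was split by level. Nr1h2, which encodes LXR beta, had the highest mean of all members at 120 and 118 TPM (119 ± 1.15), a range that overlapped that of Srebf2. Nr1h3 (chr2:91184061-91202834), which encodes LXR alpha, was at 1.40 and 0.480 TPM (0.940 ± 0.651), from 45 and 18 estimated counts. Nr1h2 was 85.6 and 246 times as high, a log2 ratio of 7.18 ± 1.08. Beside the low level of Nr1h3, known as high in macrophages, stand the macrophage and myeloid markers. Csf1r was at 4.34 and 1.91 TPM, Adgre1 at 0.950 and 0.270 TPM, Mertk at 0.690 and 0.450 TPM, and Lyz2 at 14.4 and 11.9 TPM. Of the 8 markers none was at 0, and 7 of them and Nr1h3 were higher in library 1. The part of such cells in the Nr1h3 value was not tested, and in bulk RNA fewer cells of a type cannot be told apart from less RNA per cell. The efflux pump Abcg1 was at 33.2 and 36.4 TPM (34.8 ± 2.26), and Abca1 at 5.66 and 5.75 TPM (5.71 ± 0.0636). Abcg1 was 5.86 and 6.32 times as high as Abca1, a log2 ratio of 2.61 ± 0.08. The counts, which are not divided by length, gave log2 ratios of 0.98 (estimated counts) and 0.11 (M4 counts) for this pair, and Abca1 has the longer effective length. Of the RXR partners that LXR needs, Rxrb was at 60.5 and 54.5 TPM, Rxra at 10.4 and 9.77 TPM and Rxrg at 0.110 and 0 TPM.

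All 4 members of transport and esterification were detected. Npc2 and Npc1 move cholesterol out of lysosomes. Npc2 was at 87.1 and 90.3 TPM (88.7 ± 2.23), and Npc1 at 19.1 and 18.0 TPM (18.6 ± 0.764). Npc2 was 4.56 and 5.0 times as high, a log2 ratio of 2.26 ± 0.10. The ratio was 3.90 on protein-coding transcripts alone and 0.45 on M4 counts, which are not divided by length, so its size depended on the table and the transcripts used. Soat1, which esterifies cholesterol for storage, was at 35.4 and 28.5 TPM (31.9 ± 4.85). Stard4, a soluble sterol carrier, was lowest at 7.48 and 11.3 TPM (9.41 ± 2.72). Npc2 exceeded the others in both libraries.

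In fatty acid synthesis 3 of 4 members were detected. Scd2 (chr19:44293674-44306864), a stearoyl-CoA desaturase, was at 39.5 and 31.9 TPM (35.7 ± 5.37). Fasn, the fatty acid synthase, was at 38.3 and 31.5 TPM (34.9 ± 4.82). Acaca, the carboxylase that makes malonyl-CoA, was lower at 6.56 and 4.87 TPM (5.72 ± 1.20). Scd1 (chr19:44394455-44407879), the desaturase known as dominant in liver and fat, was at 0.530 TPM in library 1, from 28.2 estimated counts, and listed at 0 in library 2, where a count of 0 allows up to 3 reads. Scd2 was 74.4 times as high as Scd1 in library 1 and, with Scd1 placed at that floor, 419-fold higher in library 2. The listed 0 is a model estimate, so this floor is not a firm bound. By posterior mean TPM Scd1 was at 0.740 and 0.250 and Scd2 at 36.9 and 29.8, a smaller gap in both libraries. The adipocyte markers beside this were at a summed 1.17 and 0.60 TPM, with Plin1 at 0.0600 and 0 TPM and Lep at 0.0900 and 0 TPM, and the hepatocyte markers Alb, Apoa1 and Ttr were at 0 in both libraries. All 4 members of this group were higher in library 1, and the sum of the group was 84.8 and 68.2 TPM.

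The estimated transcripts of a gene differ in class, and only part of a gene's TPM fell on transcripts annotated as protein coding. The median coding share over members was 86.7% by TPM and 93.3% by estimated counts, which are not divided by transcript length. The share was 90% or more in 15 members, 70 to 90% in 11, 50 to 70% in 7 and under 50% in 3. Pmvk, Nsdhl, Sc5d, Abca1 and Scd2 were at 100% in both libraries. The 3 lowest were Npc1 at 30.6 and 28.5%, Lss at 44.0 and 42.2%, and Scd1 at 45.3% in library 1, where it was 84.7% by estimated counts. In Npc1 the leading transcript by TPM was Npc1-203, a 352-base processed transcript at 8.61 and 7.28 TPM that rested on 55.1 and 45.3 estimated counts. The coding Npc1-201 held 640 and 547 estimated counts, so by counts the coding form led. In Ebp the leading transcript was the retained-intron form Ebp-202 at 47.8 and 45.9 TPM, which led by counts too. The coding Ebp-203, of 526 bases, was at 44.7 and 44.4 TPM. The longer coding Ebp-201, of 1743 bases, was at 10.15 and 8.80 TPM. Msmo1 had a coding share of 53.2% in both libraries, with the processed transcript Msmo1-206 at 19.9 and 15.7 TPM. Mvd gave 42.8 and 38.4% of its TPM, and 43.9 and 39.4% of its estimated counts, to the transcript Mvd-202 annotated for nonsense-mediated decay. Fdft1 gave 37.2 and 32.6% of its TPM to such a transcript, Fdft1-202, but 13.7 and 11.6% of its estimated counts. The leading transcript was the same in both libraries in 32 of the members. These shares are model estimates from short fragments and differ from the gene totals, whose posterior SD was at most 1% of the count in both libraries in 32 members.

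**Figure D4:**
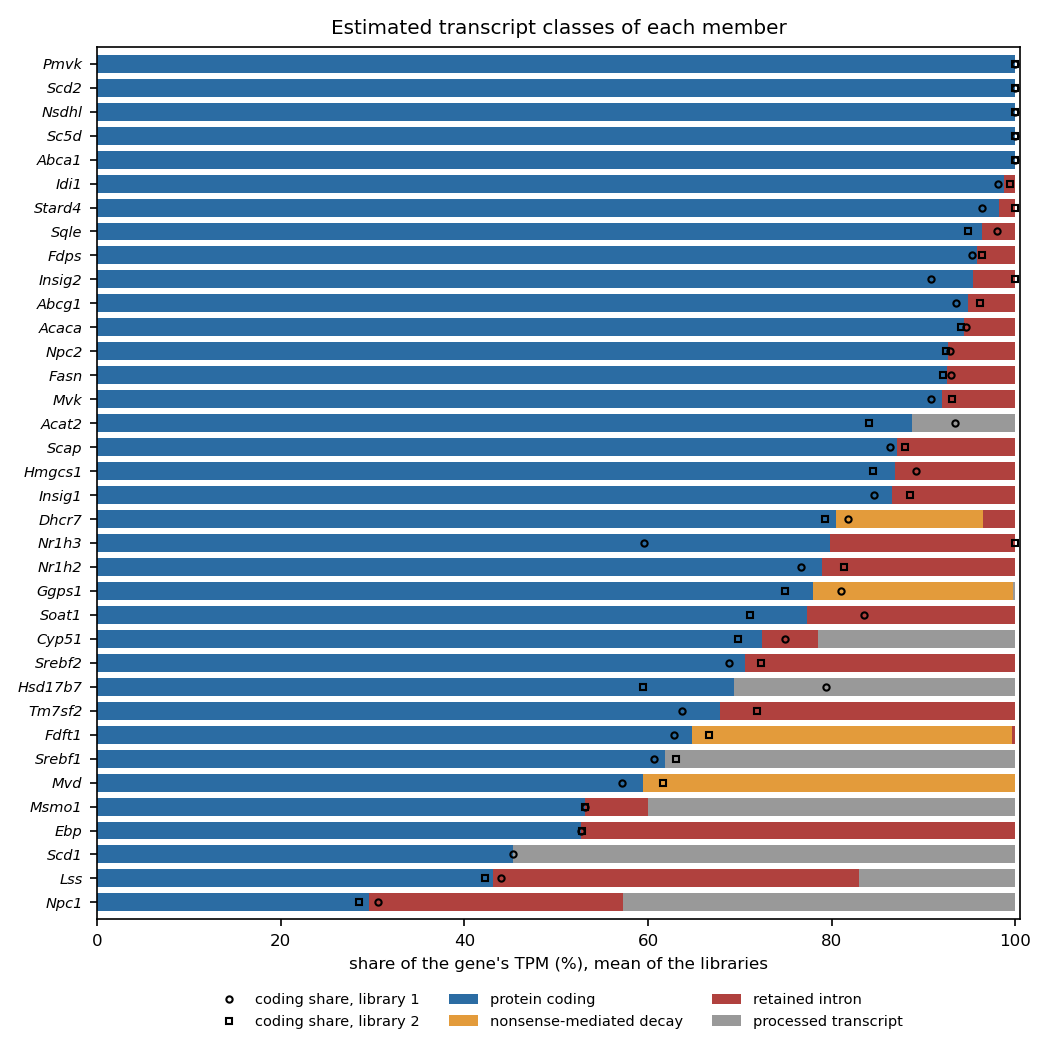
Share of each member's TPM (%) by annotated transcript class, as the mean of the libraries, with circles and squares for the coding share in libraries 1 and 2. Pmvk, Scd2, Nsdhl, Sc5d and Abca1 are wholly coding, and Npc1 is lowest at 30.6 and 28.5%.

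The technical libraries were compared to gauge the technical error of the members' values. The coefficient of variation was under 10% in 23 members, 10 to 20% in 7 and 20% or more in 6, with a median of 8.10% beside 6.92% in detected protein-coding genes. By an exact two-sided binomial test on estimated counts with Benjamini-Hochberg adjustment, which covers counting error only, 20 of the 36 members differed between libraries, beside 36.5% of the 18746 genes tested. Of these, 12 were higher in library 1 (19.2% of all genes were called so) and 8 were lower in library 1 (17.2%). Few members have low counts. Among genes with a summed count of 100 or more, 18 of 34 members were called, beside 45.3% of 12244 genes. There 10 members were higher in library 1 (24% of genes) and 8 were lower (21.3%). The median log2 ratio, library 1 over library 2, was 0.05 over members and -0.00 over all genes tested. A common dispersion can only be estimated from these same libraries taken as replicates, so the differences under test enter its error. A missed threshold with it therefore does not show that the libraries were alike. With the common dispersion of 0.0228 that edgeR estimated between the libraries, its exact test called 1 member, Scd1, beside 2.98% of genes (1.64% higher and 1.33% lower in library 1). The genome-aligned whole-number counts on GENCODE M4 called 7 of 35 members, beside 14.4% of genes. Of these 7 members 5 were higher in library 1, beside 9.76% of genes, and 2 were lower in library 1, beside 4.62%.

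The largest called ratios higher in library 1 were those of Scd1, Nr1h3 and Lss. Placed at the floor of 3 counts in library 2, Scd1 was 6.97-fold higher in library 1 by TPM. By estimated counts per library total it was 8.68-fold higher (adjusted p = 1.87e-07 by the exact binomial test). Its posterior mean TPM of 0.740 and 0.250 gave a smaller gap, and its M4 counts were 5 and 0. Nr1h3 had a log2 ratio of 1.19 (adjusted p = 0.00854 by that exact test, and 0.308 with the common dispersion). Lss had 660 and 459 estimated counts, a log2 ratio of 0.41 (adjusted p = 2.62e-05 by the exact binomial test), but its M4 counts were 307 and 274, a log2 ratio of 0.08. Its TPM, which allows for an effective length of 3433 bases in library 1 and 2648 in library 2, had a log2 ratio of 0.10. Its retained-intron transcripts Lss-204, Lss-206 and Lss-207 were at 87.0, 62.3 and 99.9 estimated counts in library 1 and 26.7, 18.6 and 46.9 in library 2.

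The largest called ratios lower in library 1 were those of Dhcr7, Mvk and Stard4. Dhcr7 had 1299 and 1798 estimated counts, a log2 ratio of -0.58 (adjusted p = 4.21e-27 by the exact binomial test), and its M4 counts of 681 and 880 lay the same way. Mvk had 294 and 406 estimated counts, a log2 ratio of -0.58 (adjusted p = 1.64e-06 by the exact binomial test), with M4 counts of 214 and 263. Both calls also passed on M4 counts and neither passed with the common dispersion (adjusted p = 0.569 for Dhcr7 and 0.638 for Mvk by edgeR's exact test). Stard4 had 542 and 585 estimated counts, a log2 ratio of -0.22 (adjusted p = 0.029 by the exact binomial test), while its TPM had a log2 ratio of -0.60, and its short transcript Stard4-202 was estimated at 0 and 35.1 counts. The remaining called members had log2 ratios between -0.22 for Fdps and 0.26 for Sqle. Nr1h2 was called lower in library 1 by counts (log2 ratio -0.09) while its TPM was slightly higher there (log2 ratio 0.02).

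**Figure D5:**
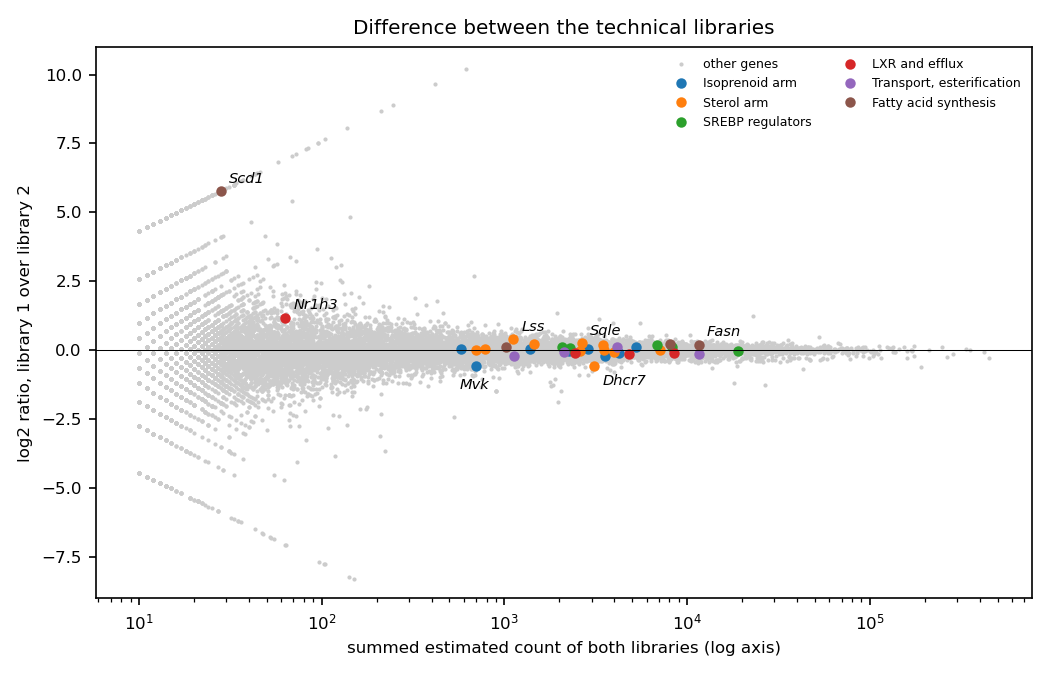
Log2 ratio of estimated counts, library 1 over library 2, against the summed estimated count on a log axis, with members in the colours of their role groups over the other genes tested (grey). Most members lie near 0, with Scd1 at 28.2 and 0 counts (its height depends on the prior count of 0.5), Nr1h3 at 45 and 18 counts, Lss above, and Mvk and Dhcr7 below.

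The deposited tables differ in how many reads they gave a member. M4 counts were 39.4% of M21 estimated counts in library 1 in the median of the 25 members with 1000 to 10000 estimated counts, beside 41.2% over all genes in that range. Idi1 stood apart, with 14 and 5 M4 counts beside 1510 and 1348 estimated counts. That is 0.927% and 0.371%, under the lowest 5% of all genes in that range, which in library 1 ended at 7.88%. Npc2 at 13.0 and 12.7%, Acat2 at 13.4 and 14.1% and Scd2 at 14.0 and 15.4% were the next lowest members with values in both libraries, and lay above that limit. Close copies of some members exist, and the following were low. Idi2 was at 0 in both libraries and Acat3 at 0.180 and 0.970 TPM. Scd3 was at 0 and 0.0800 TPM, and Scd4 at 0.380 and 0.210 TPM. The posterior SD of the Idi1 count was 12.0 and 12.8, and that of the Idi2 count 0.61 and 0. Other copies that could share reads were not examined. Acat1, the mitochondrial thiolase, was at 58.1 and 54.4 TPM. The cause of the low M4 counts of Idi1 was not tested. Another annotated gene overlapped 19 members, and in 7 of these it was detected, for example Ctsb with Fdft1 over 774 bases and Arid4b with Ggps1 over 257 bases, and with the strandedness not given, reads there cannot be told apart.

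Of 71 related genes in 8 lists, 53 were detected. All 10 genes of SREBP cleavage and sterol-regulated degradation were detected, from Aup1, which helps ubiquitin enzymes act on the endoplasmic reticulum, at 396 and 367 TPM, to Erlin1 at 4.32 and 7.12 TPM. All 10 sterol transfer proteins were detected, from Gramd1a at 301 and 253 TPM to Gramd1c at 3.02 and 4.04 TPM. Of 15 enzymes that use prenyl groups 14 were detected, with Fnta, the shared subunit of the farnesyl and geranylgeranyl transferases, highest at 117 and 92.9 TPM, and Chml at 0.520 and 0.630 TPM. Of 9 genes of neutral lipid storage and hydrolysis 8 were detected, with the lysosomal lipase Lipa highest at 78.4 and 69.8 TPM and Soat2, the other cholesterol esterifying enzyme, at 0.680 and 0.730 TPM. In fatty acid supply, elongation and desaturation 7 of 11 were detected, with the elongase Elovl5 highest at 166 and 157 TPM. The others were Acacb at 0.210 and 0.0700 TPM, Me1 at 0.0900 and 0.05 TPM, Elovl7 at 0.240 and 0.910 TPM and Fads2 at 0.110 and 0 TPM. Of the 7 genes of oxysterol, bile acid and steroid synthesis 1 was detected, Star, at 2.42 and 2.95 TPM. Star encodes a sterol carrier and not an enzyme, and none of the enzymes of this list was detected. Cyp7a1, which starts bile acid synthesis, was at 0.220 and 0 TPM, Cyp11a1, which starts steroid synthesis, at 0.0200 and 0.440 TPM, and Cyp27a1 at 0.330 and 0.240 TPM. Ch25h, Cyp46a1 and Cyp7b1 were at 0.0400, 0.260 and 0.0200 TPM in library 1 and listed at 0 in library 2.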

How the data were processed

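Per the file headers, the authors' GENCODE M21 gene and transcript tables hold estimated counts, TPM and FPKM with posterior mean TPM and posterior SD. Per the deposited file lists they rest on transcriptome alignments to mm10. The deposited GENCODE M4 tables hold whole-number counts per gene from genome alignments. Aligner and quantifier were not given in the sources used here. Effective length was length less 49 bases. Rows that name no gene held 0.197% and 0.212% of estimated counts and were left out.

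The members and gene lists were chosen with earlier results of these data known. The values of 1 gene of the related lists are not reported here. All 36 members are named; full values go to the highest and lowest of each role group, to 6 pairs, and to the 3 largest called ratios each way.

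Estimated counts were rounded, and genes whose counts summed to 10 or more were scaled by TMM (edgeR 4.0.16, R 4.3.3). Tests were exact binomial tests with Benjamini-Hochberg adjustment at 0.05 and a prior count of 0.5. With 1 library a side the quasi-likelihood test of edgeR lacks residual degrees of freedom. Its exact test, given the common dispersion, was an alternative, as were DESeq2 1.42.0 size factors and the M4 counts. That dispersion came from the same libraries taken as replicates. Both tests were tested on simulated data. p-values compare these libraries only. Floors of 3 counts cover counting error only. Promoter windows came from RefSeq on GRCm38.p6.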

Additional observations from a re-analysis of the deposited data

How the results depend on the processing

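Leaving out 1 library left 34 to 35 members detected, a member median of 27.7 to 28.4 TPM, a coding share of 85.4 to 88.0%, and 5 of 6 pairs with the first gene higher. The member median was 18.0 in FPKM, 28.0 by posterior mean TPM, 23.8 TPM on coding transcripts and 30.8 TPM over detected members, against 28.8 TPM. The coding share was 93.3% by estimated counts. Members called between the libraries were 7 on M4 counts (5 higher and 2 lower in library 1) and 1 with the common dispersion (1 higher and 0 lower), against 20; of members lower in library 1, edgeR's exact test also had 0 at an unadjusted p under 0.05, beside 8 called by the exact binomial test. Over all genes the calls were 1747 and 558, against 6834. The Insig1 to Insig2 log2 ratio was -0.15 by TPM, and 0.14 by estimated counts. Library totals, DESeq2 size factors, other count filters and centring by length moved the count of called members by less than 1.5 times. The called members were not all the same: with centring by length Scap and Soat1 left the called set, and Srebf2 and Cyp51 entered it. On M4 counts 3 named calls missed the threshold of the exact binomial test: Nr1h3 kept its size (log2 ratio 1.15, adjusted p = 0.0506, against 1.19), Stard4 was larger (-0.36, adjusted p = 0.156, against -0.22), and Lss was smaller (0.08, adjusted p = 0.748, against 0.41). The cause of the fewer calls on M4 counts, which total 9576557 and 8937887, was not tested, and the common dispersion allows for spread beyond counting error. Of the level ratios, Scd2 to Scd1 was 4.88 with a pseudocount of 1 and 7.36 on coding transcripts, against a log2 ratio of 6.22, and Nr1h2 to Nr1h3 was 5.99 with that pseudocount, against 7.18. Scd1 and Nr1h3 rest on 28.2 and 0, and 45 and 18, estimated counts. No paired analysis was possible because the labels give 1 group.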
